A study of Mus musculus with 9 samples.

Results

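The 38 genes described here are a chosen list from the integrated stress response and from amino acid synthesis, transport and loading onto tRNA. They were picked by symbol from the 40213 gene symbols of the count tables, and all 38 were measured well enough to be tested. They comprise 14 stress regulators and effectors, 8 serine and one-carbon enzymes, 5 enzymes of asparagine, proline and cysteine synthesis, 7 amino acid transporters and 4 tRNA synthetases. For 37 of them the listed symbol was found as such, and tryptophanyl-tRNA synthetase is listed in the files as Wars1. RNA was sequenced from mouse embryonic stem (ES) cells in 3 groups of 3 libraries, all grown in ES cell medium with LIF, the cytokine that maintains mouse ES cells. The EWS-OCT4 group is a Niwa stable line that carries a fusion of EWS, an RNA-binding protein, with the pluripotency factor OCT4. The OCT4 group is a Niwa stable line that carries OCT4 without the fusion partner, and J1 is an ES cell line used as the control. The stable lines received 1 µg/ml doxycycline to lower endogenous OCT4, and the labels do not say whether J1 received it. The labels give each group a single name with a running number. They do not say whether the number marks a library, a culture or a separate line, so p-values measure the spread between these libraries. The construct, the parental line and doxycycline therefore cannot be told apart in comparisons with J1, nor the construct and the line between the stable lines.

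The integrated stress response starts when a kinase that senses amino acid shortage, unfolded protein in the endoplasmic reticulum (ER), viral RNA or mitochondrial and haem stress phosphorylates the initiation factor eIF2. Most translation then slows while the transcription factor ATF4 is made more, and ATF4, often with a C/EBP protein as partner, switches on genes that make, import and load amino acids. Prolonged activity adds CHOP, encoded by Ddit3, and feedback regulators such as GADD34, which restores translation. Because ATF4 is controlled mainly at translation, its mRNA level is not a measure of its protein. In mouse ES cells one-carbon units for nucleotide synthesis come from serine and also from threonine and glycine.

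Of the 14 stress genes, 8 rose, 1 fell and 5 were not called in the OCT4 line against J1. The largest rises were those of Ddit3, 3.39-fold, and Nupr1, 3.24-fold, both called. The gene that fell was Stc2, which was 4.95-fold lower. The 5 enzymes of asparagine, proline and cysteine synthesis all averaged highest in the OCT4 line, although Aldh18a1 was only 1.00-fold its J1 level and not called. The serine and one-carbon enzymes were instead all highest on average in J1, although Mthfd2 was called in no comparison. The arginine and lysine transporter Slc7a3 was highest in the EWS-OCT4 line. Between the stable lines, with the OCT4 line as the base, 11 of the 38 genes rose in the EWS-OCT4 line, 17 fell and 10 were not called, a share of 28.9% higher and 44.7% lower. Over all 16562 genes tested, 31.9% rose and 34.6% fell in that comparison. A call is an adjusted p under 0.05 by edgeR's quasi-likelihood test, adjusted by Benjamini-Hochberg over all genes tested. Against J1, 6 genes rose in the EWS-OCT4 line, 17 fell and 15 were not called, where all genes gave 30.3% higher and 31.6% lower. The OCT4 line against J1 had 15 higher, 12 lower and 11 uncalled genes, beside 34.3% higher and 32.7% lower over all genes. These shares over all genes also stand beside the counts by role and by gene list given below. The median log2 fold change of the 38 genes was -0.19 in the EWS-OCT4 line against the OCT4 line, -0.16 in the EWS-OCT4 line against J1 and -0.03 in the OCT4 line against J1. The medians over all genes tested were -0.04, 0.00262 and 0.00616 in the same order. Each group enters a pair of these comparisons, so they are not independent of each other.

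The libraries held 21149358 to 24786305 counts, and levels are given as CPM, counts scaled to a common library size by TMM. Pou5f1, which encodes OCT4, had 25.6, 29.3 and 25.6 CPM in the EWS-OCT4 libraries, 165, 168 and 162 CPM in the OCT4 libraries and 522, 639 and 545 CPM in the J1 libraries. Counts per gene symbol do not tell reads of the endogenous gene from any reads of the constructs. All 8 ES cell markers, Pou5f1 among them, were detected in all 9 libraries. Against J1, 1 of the 8 rose and 4 fell in the EWS-OCT4 line, and 1 rose and 6 fell in the OCT4 line. Between the stable lines 3 rose and 2 fell in the EWS-OCT4 line. Summed, the 8 reached 3243 to 3340 CPM in the EWS-OCT4 line, 2954 to 3025 CPM in the OCT4 line and 4475 to 4905 CPM in J1. Of 9 trophoblast markers, 8 were detected in every library and Cdx2 was at 0 in 1 J1 library. Against J1, 8 of the 9 rose in the OCT4 line, and 7 rose and 0 fell in the EWS-OCT4 line. Between the stable lines 1 rose and 6 fell in the EWS-OCT4 line. Their summed level was 251 to 266 CPM in the EWS-OCT4 line, 477 to 511 CPM in the OCT4 line and 136 to 161 CPM in J1. The fibroblast markers Col3a1, Postn, Dcn and Lum were at 0 in some libraries, and the 7 fibroblast markers summed to 23.0 to 26.3 CPM, 34.0 to 40.0 CPM and 68.5 to 87.5 CPM in the EWS-OCT4 line, the OCT4 line and J1. Of 6 primitive endoderm markers, Foxa2 was at 0 in 1 EWS-OCT4 library and was not tested; of the 5 tested, 5 fell in the EWS-OCT4 line against J1 and 3 against the OCT4 line, while in the OCT4 line against J1 1 rose, Gata6, and 2 fell. The 6 summed to 7.96 to 8.85 CPM in the EWS-OCT4 line, 21.8 to 24.0 CPM in the OCT4 line and 25.9 to 31.1 CPM in J1. The 4 neural markers, detected in every library, summed to 71.8 to 73.4 CPM, 72.4 to 75.8 CPM and 82.5 to 96.1 CPM in the same order. These sums hide opposite moves, as 2 rose and 2 fell in each of the 3 comparisons. Their log2 fold changes ran from -1.59 to 4.50 in the EWS-OCT4 line against the OCT4 line. Against J1 they ran from -0.66 to 2.37 in the EWS-OCT4 line and from -2.13 to 2.59 in the OCT4 line. The part of such cells in the values of the 38 genes was not tested. In bulk RNA, fewer cells that express a gene and less RNA per cell cannot be told apart. The mitochondrially encoded genes took 16.7 to 17.5% of counts in the EWS-OCT4 line, 10.6 to 12.8% in the OCT4 line and 12.7 to 15.99% in J1, and fold changes without them were computed as an alternative.

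**Figure D1:**
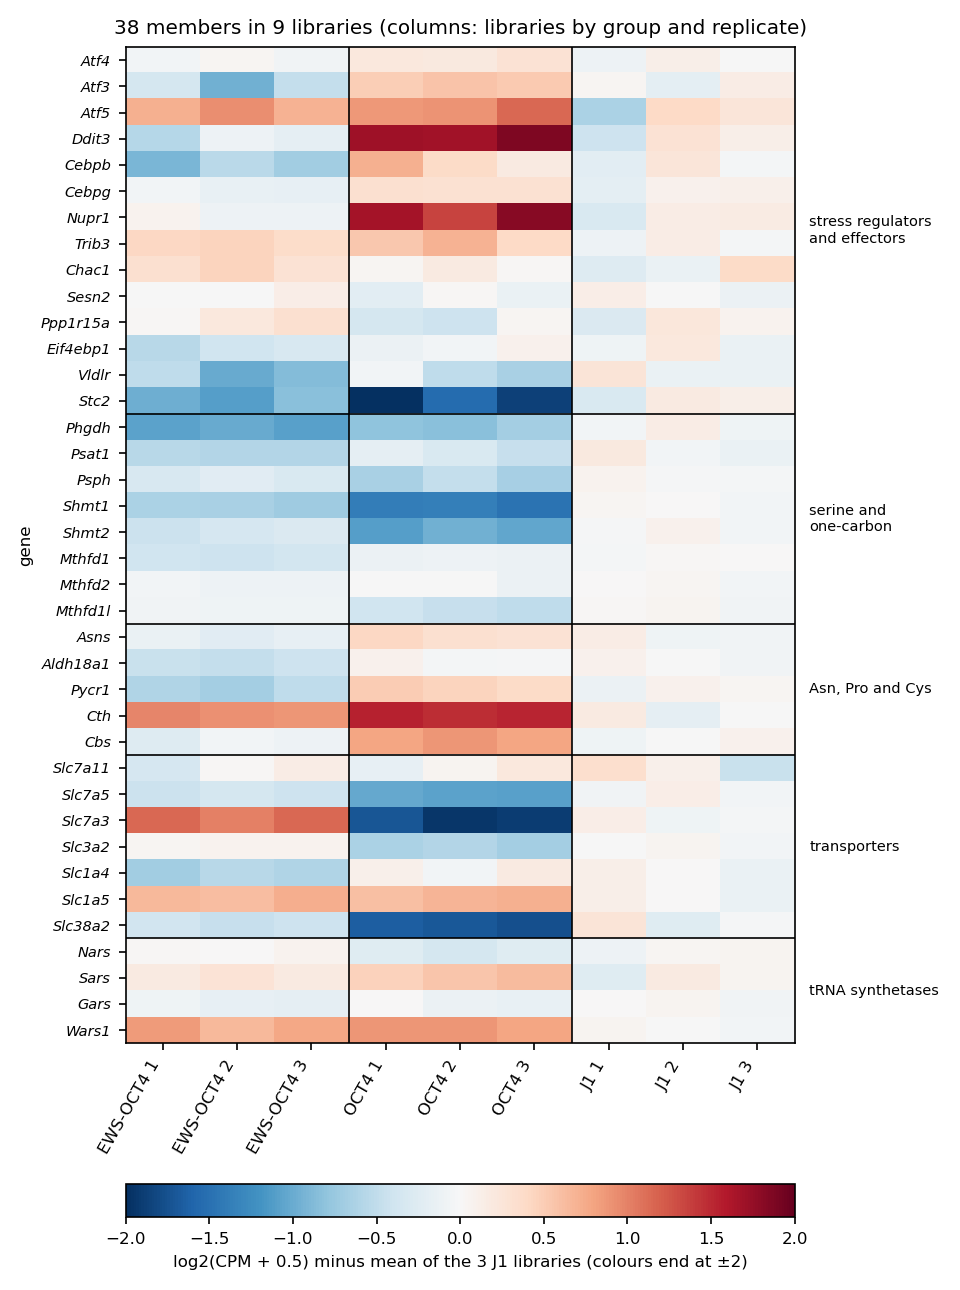
Level of the 38 genes (rows, grouped by role) in the 9 libraries (columns, EWS-OCT4, OCT4 and J1), as log2(CPM + 0.5) minus the mean of the 3 J1 libraries, where red is above J1 and blue below, with colours ending at 2 either way. The OCT4 columns are red for Ddit3 and Nupr1 and blue for Shmt1, Slc7a3 and Slc38a2, and the serine and one-carbon rows are blue or pale in both stable lines.

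Among the 14 stress regulators and effectors, 2 rose and 7 fell in the EWS-OCT4 line against the OCT4 line, and their median log2 fold change was -0.33. Against J1, 8 rose and 1 fell in the OCT4 line, with a median of 0.27. Between the EWS-OCT4 line and J1, 2 rose, 5 fell and 7 were not called, with a median of -0.10. The summed level of the 14 genes was 449 to 490 CPM in the EWS-OCT4 line, 580 to 643 CPM in the OCT4 line and 498 to 606 CPM in J1. Sums of the EWS-OCT4 and OCT4 libraries did not overlap, while those of J1 overlapped the OCT4 sums.

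Ddit3, which encodes the pro-apoptotic transcription factor CHOP, had 8.08, 11.4 and 10.8 CPM in EWS-OCT4, 40.6, 40.3 and 46.1 CPM in OCT4 and 9.12, 15.2 and 13.3 CPM in J1. Every OCT4 library was above every other library, and the EWS-OCT4 and J1 values overlapped. Ddit3 had a log2 fold change of -2.06 (SE 0.162, adjusted p = 1.25e-07) in the EWS-OCT4 line against the OCT4 line, and 1.76 (SE 0.158, adjusted p = 3.97e-07) in the OCT4 line against J1. Between the EWS-OCT4 line and J1 it had a log2 fold change of -0.30 (SE 0.172, adjusted p = 0.142). Ddit3 was called there in 3 of 18 alternatives. Without J1 replicate 1, the log2 fold change was -0.49, with an adjusted p of 0.00154. Of its exons, 68 bases overlap Mars on the opposite strand, whose reads may be shared since the sources used here do not give the strand of counting. Nupr1, a small stress-induced chromatin protein, had 5.77, 5.06 and 5.10 CPM in EWS-OCT4, 18.5, 14.7 and 20.5 CPM in OCT4 and 4.34, 6.10 and 6.21 CPM in J1. It too was highest in all OCT4 libraries, with a log2 fold change of -1.76 (SE 0.148, adjusted p = 1.19e-08) in the EWS-OCT4 line against the OCT4 line and 1.70 (SE 0.146, adjusted p = 1.30e-08) in the OCT4 line against J1. Between the EWS-OCT4 line and J1 Nupr1 had a log2 fold change of -0.0618 (SE 0.161, adjusted p = 0.756).

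Atf4 itself differed far less. It had 119, 128 and 118 CPM in EWS-OCT4, 143, 142 and 152 CPM in OCT4 and 116, 134 and 122 CPM in J1. The OCT4 libraries were the highest, and the EWS-OCT4 and J1 values overlapped. The log2 fold change was -0.26 (SE 0.0695, adjusted p = 0.00348) in the EWS-OCT4 line against the OCT4 line, 0.23 (SE 0.0694, adjusted p = 0.00688) in the OCT4 line against J1 and -0.0252 (SE 0.0696, adjusted p = 0.770) in the EWS-OCT4 line against J1. Its dimer partner Cebpg had 26.0, 24.5 and 24.1 CPM in EWS-OCT4, 33.9, 33.7 and 33.5 CPM in OCT4 and 23.6, 28.8 and 29.2 CPM in J1. It was again highest in the OCT4 line, with a log2 fold change of -0.44 (SE 0.0863, adjusted p = 2.21e-04) for the EWS-OCT4 line against the OCT4 line. Cebpb, a C/EBP factor that also drives immune and fat cell genes, had 1.92, 2.64 and 2.32 CPM in EWS-OCT4, 6.97, 5.47 and 4.66 CPM in OCT4 and 3.45, 4.87 and 3.95 CPM in J1. It shares 312 exon bases with Tmem189 on the opposite strand. Cebpb was lowest in the EWS-OCT4 line, where the log2 fold change was -1.30 (SE 0.196, adjusted p = 1.41e-05) against the OCT4 line and -0.83 (SE 0.200, adjusted p = 0.00165) against J1. Cebpb gave a log2 fold change of 0.47 (SE 0.182, adjusted p = 0.0288) in the OCT4 line against J1, where the groups overlapped. It was no longer called there without OCT4 replicate 1, J1 replicate 1 or J1 replicate 3, with adjusted p up to 0.179.

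Atf3 and Atf5 are further stress-induced bZIP factors of the ATF family. Atf3 was low in all groups, with 0.914, 0.433 and 0.800 CPM in EWS-OCT4, 2.03, 2.17 and 2.10 CPM in OCT4 and 1.37, 1.08 and 1.5 CPM in J1. The 3 groups were in separate ranges, with a log2 fold change of -1.55 (SE 0.277, adjusted p = 8.79e-05) in the EWS-OCT4 line against the OCT4 line. Against J1, Atf3 gave a log2 fold change of -0.88 (SE 0.291, adjusted p = 0.0146) in the EWS-OCT4 line and 0.68 (SE 0.251, adjusted p = 0.0241) in the OCT4 line. The call in the EWS-OCT4 line ended without EWS-OCT4 replicate 2 or J1 replicate 3, with adjusted p up to 0.0906. The call in the OCT4 line ended under DESeq2 and without OCT4 replicate 2, OCT4 replicate 3 or J1 replicate 2, with adjusted p up to 0.0962. Atf5 had 13.8, 16.1 and 13.5 CPM in EWS-OCT4, 15.4, 15.7 and 18.7 CPM in OCT4 and 5.10, 11 and 9.73 CPM in J1. Both stable lines were above J1, with a log2 fold change of 0.75 (SE 0.219, adjusted p = 0.0115) in the EWS-OCT4 line and 0.95 (SE 0.217, adjusted p = 0.00237) in the OCT4 line, and J1 replicate 1 was the lowest library. The stable lines overlapped, with a log2 fold change of -0.20 (SE 0.208, adjusted p = 0.415) in the EWS-OCT4 line against the OCT4 line.

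Trib3, a pseudokinase that damps ATF4 and CHOP, had 8.08, 8.22 and 7.75 CPM in EWS-OCT4, 8.77, 9.89 and 7.94 CPM in OCT4 and 5.46, 6.58 and 5.74 CPM in J1. It rose over J1 in both stable lines, with a log2 fold change of 0.43 (SE 0.126, adjusted p = 0.00635) in the EWS-OCT4 line and 0.58 (SE 0.125, adjusted p = 5.36e-04) in the OCT4 line. The stable lines overlapped for Trib3, at a log2 fold change of -0.14 (SE 0.122, adjusted p = 0.308) in the EWS-OCT4 line against the OCT4 line. Chac1, which breaks down glutathione and is a common readout of ATF4 activity, had 2.69, 2.99 and 2.61 CPM in EWS-OCT4, 2.12, 2.39 and 2.10 CPM in OCT4 and 1.65, 1.84 and 2.82 CPM in J1. It passed the test in none of the 3 comparisons, the smallest adjusted p being 0.107 for the EWS-OCT4 line against J1, and stayed uncalled between the stable lines although their values did not overlap. Sesn2, a leucine sensor that restrains mTORC1, had 38.8, 38.7 and 42.6 CPM in EWS-OCT4, 33.6, 39.7 and 35.5 CPM in OCT4 and 42.7, 38.5 and 35.7 CPM in J1. Its groups overlapped, and it was called in none of the 3 comparisons. Ppp1r15a, which encodes GADD34, had 41.4, 47.3 and 50.7 CPM in EWS-OCT4, 31.9, 30.5 and 41.6 CPM in OCT4 and 33.0, 47.7 and 42.6 CPM in J1. It was called only in the EWS-OCT4 line against the OCT4 line, with a log2 fold change of 0.42 (SE 0.145, adjusted p = 0.0220). That call ended without EWS-OCT4 replicate 3, OCT4 replicate 1 or OCT4 replicate 2, with adjusted p up to 0.0816.

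The remaining stress genes had other orders of level. Eif4ebp1, which encodes the translation repressor 4E-BP1, had 179, 198 and 208 CPM in EWS-OCT4, 240.2, 252 and 277 CPM in OCT4 and 246, 304 and 239 CPM in J1. It fell in the EWS-OCT4 line, with a log2 fold change of -0.39 (SE 0.0908, adjusted p = 0.00104) against the OCT4 line and -0.43 (SE 0.0908, adjusted p = 5.40e-04) against J1. Of its 31-base words, 15% also occur in other annotated transcripts. Stc2, a secreted glycoprotein, had 1.83, 1.64 and 2.06 CPM in EWS-OCT4, 0.646, 1.08 and 0.756 CPM in OCT4 and 3.21, 4.71 and 4.47 CPM in J1. All 3 groups were apart, with a log2 fold change of 1.15 (SE 0.262, adjusted p = 9.00e-04) in the EWS-OCT4 line against the OCT4 line, -1.16 (SE 0.215, adjusted p = 1.59e-04) in the EWS-OCT4 line against J1 and -2.31 (SE 0.241, adjusted p = 1.61e-07) in the OCT4 line against J1. Vldlr, a lipoprotein receptor, had 1.54, 0.952 and 1.10 CPM in EWS-OCT4, 2.31, 1.54 and 1.34 CPM in OCT4 and 2.97, 2.15 and 2.16 CPM in J1. It was called only in the EWS-OCT4 line against J1, with a log2 fold change of -1.03 (SE 0.264, adjusted p = 0.00258).

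**Figure D2:**
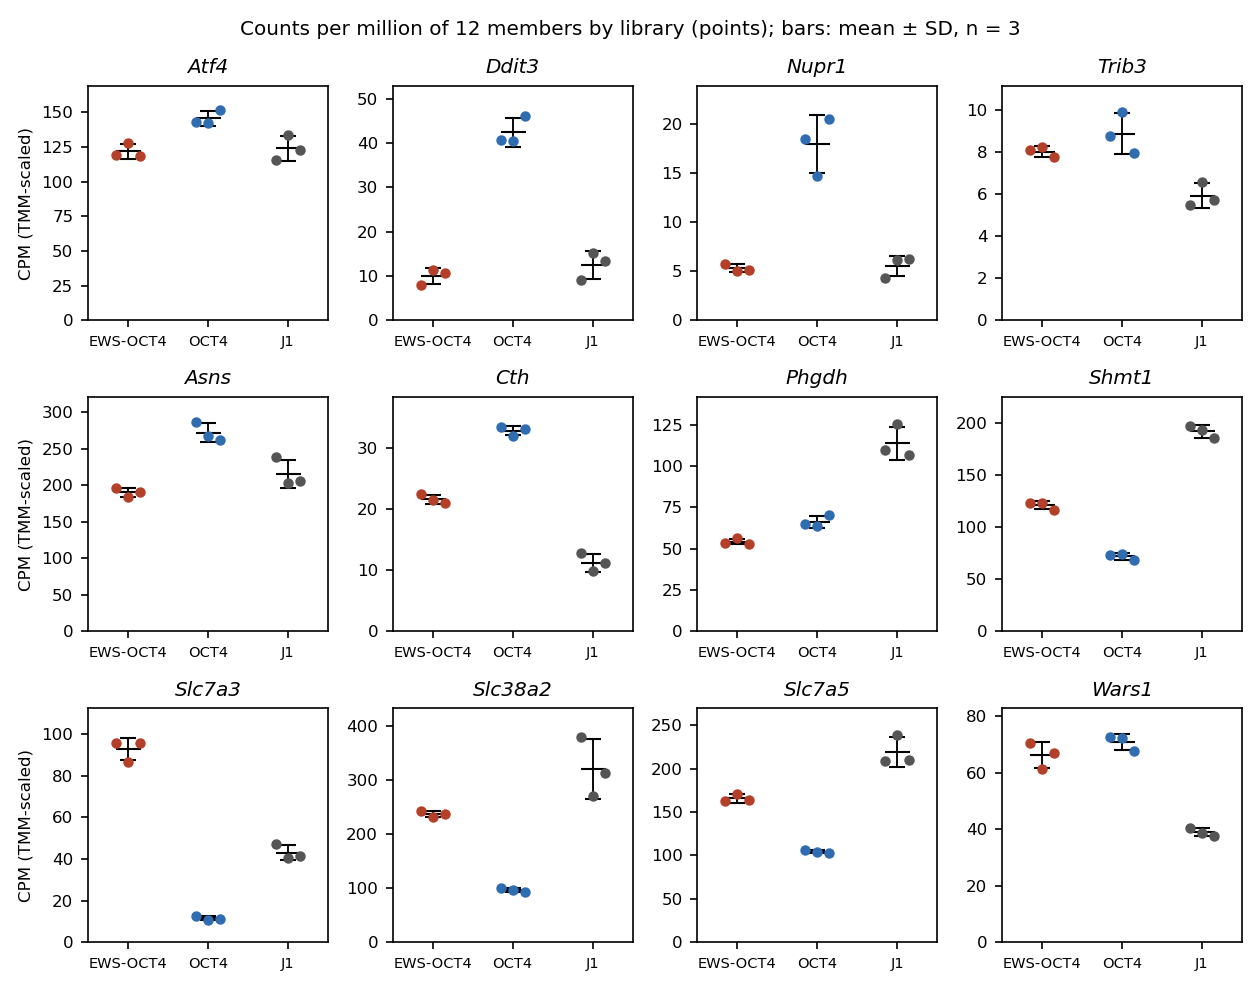
Level in CPM after TMM scaling of 12 of the 38 genes, one panel each with its own axis from 0, for the EWS-OCT4, OCT4 and J1 libraries from left to right; points are libraries and bars the mean ± SD (n = 3). Ddit3 and Nupr1 stand above the other groups in the OCT4 line, Phgdh and Shmt1 in J1, and Slc7a3 in the EWS-OCT4 line.

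The promoters of these genes were searched because ATF4 and its C/EBP partners bind a shared DNA element, the C/EBP-ATF response element. RefSeq windows on GRCm38.p6, running 250 bases before to 50 bases after each start, were matched for 31 of the 38 genes. The letters TGATGNAA, sought on both strands, were found in 10 of these 31 (32.3%), against 1219 of 27025 genes with a window (4.51%). The 38 genes were listed for a place in this response or in amino acid metabolism, some as ATF4 targets, so the higher share is no test. The 27025 also include genes too low to be tested. Among tested genes with a window, 364 had the letters and 12191 did not. The 10 genes were Asns, Atf3, Chac1, Gars, Nupr1, Pycr1, Slc1a4, Slc7a11, Trib3 and Vldlr. The ER stress element, searched on both strands as CCAAT followed after 9 bases by CCACG, was in 0 of the 31 windows and in 0.137% of all genes with a window. Stretches of 60 bases are printed for 7 of the 10, chosen because Nupr1, Atf3, Asns, Pycr1 and Slc1a4 are those of the 10 that fell in the EWS-OCT4 line against the OCT4 line, Slc7a11 has a pair of matches, and Chac1 is a common readout. They lie on GRCm38.p6 at chr7:126625547-126625606 (minus strand, Nupr1), chr1:191183410-191183469 (minus, Atf3), chr2:119351023-119351082 (plus, Chac1), chr6:7693210-7693269 (minus, Asns), chr11:120643818-120643877 (minus, Pycr1), chr11:20332710-20332769 (minus, Slc1a4) and chr3:50443637-50443696 (minus, Slc7a11). Each is written 5′ to 3′ on the strand of the gene, and capitals mark the match, which reads TTGCATCA where it lies on the other strand.
Nupr1: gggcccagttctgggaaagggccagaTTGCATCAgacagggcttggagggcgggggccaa
Atf3: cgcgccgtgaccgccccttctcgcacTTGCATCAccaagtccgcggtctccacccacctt
Chac1: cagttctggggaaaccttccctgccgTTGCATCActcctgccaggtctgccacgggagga
Asns: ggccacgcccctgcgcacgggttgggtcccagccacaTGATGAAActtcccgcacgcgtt
Pycr1: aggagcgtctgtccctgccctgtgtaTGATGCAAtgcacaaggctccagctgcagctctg
Slc1a4: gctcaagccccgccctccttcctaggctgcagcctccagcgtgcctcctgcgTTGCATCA
Slc7a11: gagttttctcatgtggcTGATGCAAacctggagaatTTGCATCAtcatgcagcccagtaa
The match began at position -110 from the start in both Nupr1 and Atf3, at -193 in Chac1, at -23 in Asns, at -103 in Pycr1, at -4 in Slc1a4 and at -66 and -47 in Slc7a11. Of the 10 genes with the letters, 0 rose and 5 fell in the EWS-OCT4 line against the OCT4 line, 1 rose and 5 fell in the EWS-OCT4 line against J1, and 5 rose and 0 fell in the OCT4 line against J1. The counts of 0 were also 0 at an unadjusted p under 0.05 in edgeR and with DESeq2 or limma-voom. For the 21 genes with a window and no match the counts were 8 and 10, 1 and 10, and 7 and 9 in the same order. Over all 364 tested genes with the letters, 30.2% rose and 32.1% fell in the EWS-OCT4 line against the OCT4 line, and 31.9% rose and 34.9% fell in the OCT4 line against J1. A match describes these letters only, and binding was not measured.

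Of the 8 serine and one-carbon enzymes, 6 fell in the EWS-OCT4 line and 6 in the OCT4 line against J1, and 0 rose in either. The count of 0 was the same at an unadjusted p under 0.05 in edgeR and with DESeq2 or limma-voom. Their median log2 fold change against J1 was -0.38 in the EWS-OCT4 line and -0.53 in the OCT4 line. Their summed level was 860 to 865 CPM in the EWS-OCT4 line, 839 to 875 CPM in the OCT4 line and 1153 to 1215 CPM in J1. The sums of the stable lines overlapped, but single genes moved both ways between them: in the EWS-OCT4 line against the OCT4 line 4 rose, 3 fell and 1 was not called.

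Phgdh, Psat1 and Psph encode the consecutive enzymes that make serine from a glycolytic intermediate. Phgdh had 53.6, 56.3 and 53.2 CPM in EWS-OCT4, 64.9, 63.7 and 70.4 CPM in OCT4 and 109.9, 125 and 106 CPM in J1. The groups did not overlap, and Phgdh fell, with a log2 fold change of -1.07 (SE 0.0740, adjusted p = 1.51e-09) in the EWS-OCT4 line and with -0.78 (SE 0.0732, adjusted p = 3.99e-08) in the OCT4 line against J1, and with -0.29 (SE 0.0744, adjusted p = 0.00253) in the EWS-OCT4 line against the OCT4 line. Annotated copies limit this gene: 73.5% of its 31-base words occur in other transcripts, and Gm6756 and Gm8096 are the only such genes sharing at least 10% that are in the files, with at most 26 counts per group. Psat1 had 125, 122 and 122 CPM in EWS-OCT4, 163, 149 and 133 CPM in OCT4 and 209, 176 and 168 CPM in J1. Psat1 was lowest in the EWS-OCT4 line, with a log2 fold change of -0.58 (SE 0.0862, adjusted p = 1.46e-05) there and -0.32 (SE 0.0857, adjusted p = 0.00342) in the OCT4 line against J1. Between the stable lines Psat1 gave a log2 fold change of -0.27 (SE 0.0863, adjusted p = 0.0112), a call that ended without EWS-OCT4 replicate 2 or OCT4 replicate 1, with adjusted p up to 0.0763. Psph, which releases serine, had 26.3, 27.9 and 26.5 CPM in EWS-OCT4, 20.7, 23.5 and 20.6 CPM in OCT4 and 34.5, 32.2 and 31.8 CPM in J1. Unlike Phgdh, it was lowest in the OCT4 line. Psph had a log2 fold change of 0.32 (SE 0.0815, adjusted p = 0.00244) in the EWS-OCT4 line against the OCT4 line, and 452 bases of its exons overlap Cct6a on the opposite strand.

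Shmt1 and Shmt2 move a one-carbon unit from serine to folate in the cytosol and in mitochondria. Shmt1 had 123, 123 and 116 CPM in EWS-OCT4, 72.9, 74.1 and 68.3 CPM in OCT4 and 197, 193 and 185 CPM in J1. The groups were well apart, with a log2 fold change of 0.75 (SE 0.0650, adjusted p = 1.76e-08) in the EWS-OCT4 line against the OCT4 line, -0.67 (SE 0.0638, adjusted p = 8.97e-08) in the EWS-OCT4 line against J1 and -1.42 (SE 0.0653, adjusted p = 3.47e-12) in the OCT4 line against J1. Shmt2 followed the same order with 84.0, 89.7 and 92.8 CPM in EWS-OCT4, 52.4, 58.4 and 55.2 CPM in OCT4 and 111, 120.2 and 109.7 CPM in J1. Shmt2 had a log2 fold change of 0.68 (SE 0.0698, adjusted p = 1.44e-07) in the EWS-OCT4 line against the OCT4 line, -0.36 (SE 0.0683, adjusted p = 2.21e-04) in the EWS-OCT4 line against J1 and -1.04 (SE 0.0697, adjusted p = 4.76e-10) in the OCT4 line against J1. Shmt1 shares 184 exon bases with Smcr8 on the opposite strand.

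Mthfd1, Mthfd2 and Mthfd1l pass folate one-carbon units on to purine and thymidylate synthesis. Cytosolic Mthfd1 had 313, 313 and 322 CPM in EWS-OCT4, 382, 387 and 381 CPM in OCT4 and 406, 423 and 417 CPM in J1. Mthfd1 was lowest in the EWS-OCT4 line, with a log2 fold change of -0.28 (SE 0.0609, adjusted p = 6.18e-04) against the OCT4 line and -0.39 (SE 0.0609, adjusted p = 2.40e-05) against J1. Mthfd2, the mitochondrial enzyme widely used as an ATF4 target, had 52.9, 51.4 and 51.5 CPM in EWS-OCT4, 54.9, 54.9 and 51.0 CPM in OCT4 and 55.7, 56.5 and 53.3 CPM in J1. All 9 libraries lay between 51.0 and 56.5 CPM, and its log2 fold changes of -0.0451, -0.0869 and -0.0418 in the 3 comparisons, each with an SE near 0.0657, were not called (smallest adjusted p = 0.262). Mthfd1l, which makes mitochondrial formate, had 81.5, 80.5 and 80.6 CPM in EWS-OCT4, 64.5, 62.1 and 60.03 CPM in OCT4 and 87.0, 89.0 and 81.2 CPM in J1. Mthfd1l was lowest in the OCT4 line, with a log2 fold change of 0.38 (SE 0.0644, adjusted p = 5.39e-05) in the EWS-OCT4 line against the OCT4 line and -0.46 (SE 0.0642, adjusted p = 5.34e-06) in the OCT4 line against J1.

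All 5 enzymes of asparagine, proline and cysteine synthesis fell in the EWS-OCT4 line against the OCT4 line, and their median log2 fold change was -0.60. Against J1, 4 rose and 0 fell in the OCT4 line, with a median of 0.45, and 1 rose and 3 fell in the EWS-OCT4 line. Both opposite directions, higher between the stable lines and lower in the OCT4 line against J1, had 0 genes, as they did at an unadjusted p under 0.05 in edgeR and with DESeq2 or limma-voom. The summed level of the 5 genes was 267 to 279 CPM in the EWS-OCT4 line, 396 to 426 CPM in the OCT4 line and 296 to 334 CPM in J1, with no overlap between groups. Cth and Cbs, the enzymes of transsulfuration that make cysteine from homocysteine, were both highest in the OCT4 line. Cth had 22.4, 21.4 and 20.9 CPM in EWS-OCT4, 33.4, 31.9 and 33.1 CPM in OCT4 and 12.8, 9.85 and 11.1 CPM in J1. Its groups did not overlap, and it was the only gene of the 5 above J1 in the EWS-OCT4 line, with a log2 fold change of 0.94 (SE 0.0956, adjusted p = 1.86e-07). The log2 fold change of Cth was -0.60 (SE 0.0889, adjusted p = 1.14e-05) in the EWS-OCT4 line against the OCT4 line and 1.54 (SE 0.0938, adjusted p = 1.30e-10) in the OCT4 line against J1. Cbs had 15.7, 18.1 and 17.5 CPM in EWS-OCT4, 33.0, 35.3 and 32.9 CPM in OCT4 and 17.8, 18.8 and 20.1 CPM in J1. The OCT4 values stood apart while those of the EWS-OCT4 line and J1 overlapped, with a log2 fold change of -0.98 (SE 0.0848, adjusted p = 1.73e-08) in the EWS-OCT4 line against the OCT4 line and 0.84 (SE 0.0838, adjusted p = 9.51e-08) in the OCT4 line against J1.

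Asns, asparagine synthetase and a standard ATF4 target, had 196, 184 and 191 CPM in EWS-OCT4, 286, 267 and 263 CPM in OCT4 and 238, 203 and 205 CPM in J1. The OCT4 libraries were the highest, with a log2 fold change of -0.52 (SE 0.0731, adjusted p = 7.39e-06) in the EWS-OCT4 line against the OCT4 line and 0.34 (SE 0.0729, adjusted p = 5.37e-04) in the OCT4 line against J1. Against J1 the EWS-OCT4 line gave a log2 fold change of -0.18 (SE 0.0731, adjusted p = 0.0418), a call lost in 11 of 18 alternatives with adjusted p up to 0.185. Aldh18a1 and Pycr1 make proline from glutamate. Pycr1 had 10.3, 9.78 and 11 CPM in EWS-OCT4, 22.9, 21.8 and 20.9 CPM in OCT4 and 14.6, 16.9 and 16.4 CPM in J1. It fell in the EWS-OCT4 line, with a log2 fold change of -1.08 (SE 0.0936, adjusted p = 1.86e-08) against the OCT4 line and with -0.62 (SE 0.0951, adjusted p = 2.18e-05) against J1, and rose in the OCT4 line over J1, with 0.45 (SE 0.0896, adjusted p = 2.29e-04). Aldh18a1 had 34.8, 34.0 and 35.8 CPM in EWS-OCT4, 50.5, 46.3 and 46.8 CPM in OCT4 and 50.6, 47.3 and 45.3 CPM in J1. It was lower in the EWS-OCT4 line than in the OCT4 line, with a log2 fold change of -0.46 (SE 0.0721, adjusted p = 2.48e-05), and than in J1, with -0.45 (SE 0.0720, adjusted p = 3.25e-05), and the OCT4 line and J1 overlapped.

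**Figure D3:**
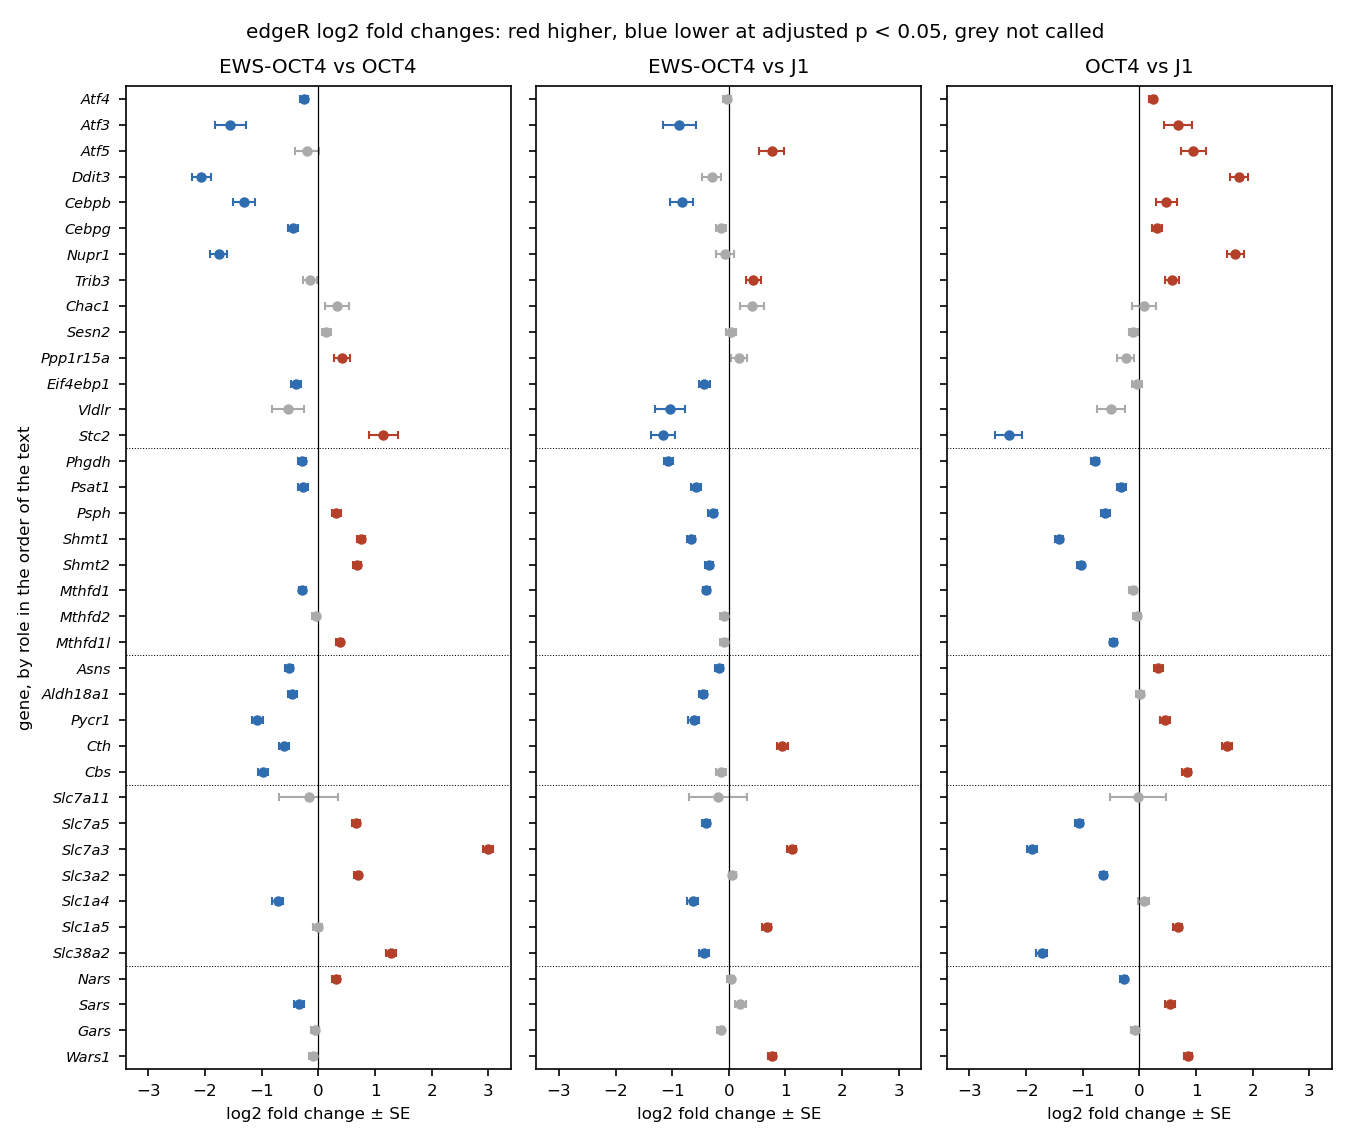
Log2 fold change with its SE for each of the 38 genes (rows, in the order of the roles in the text) in the EWS-OCT4 line against the OCT4 line, the EWS-OCT4 line against J1 and the OCT4 line against J1; red is called higher, blue called lower and grey not called. The asparagine, proline and cysteine enzymes are all blue in the first panel, and the serine and one-carbon enzymes are blue or grey in both panels against J1.

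Of the 7 amino acid transporters, 4 rose and 1 fell in the EWS-OCT4 line against the OCT4 line, and their median log2 fold change was 0.67. Against J1, 1 rose and 4 fell in the OCT4 line, with a median of -0.63, and 2 rose and 3 fell in the EWS-OCT4 line. Summed, the 7 genes reached 675 to 685 CPM in the EWS-OCT4 line, 346 to 359 CPM in the OCT4 line and 729 to 812 CPM in J1. The OCT4 line was the lowest, and the ranges did not overlap.

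Slc7a3, a carrier of arginine and lysine, gave the largest fold change of the 38 genes. It had 95.6, 86.8 and 95.9 CPM in EWS-OCT4, 12.7, 10.8 and 11.2 CPM in OCT4 and 47.2, 40.3 and 41.7 CPM in J1. Slc7a3 had a log2 fold change of 3.00 (SE 0.0896, adjusted p = 2.32e-14) in the EWS-OCT4 line against the OCT4 line, 1.11 (SE 0.0795, adjusted p = 2.42e-09) in the EWS-OCT4 line against J1 and -1.89 (SE 0.0898, adjusted p = 5.04e-12) in the OCT4 line against J1. Slc38a2, a sodium-coupled carrier of small neutral amino acids that amino acid shortage induces, had 243, 231 and 238 CPM in EWS-OCT4, 101, 97.3 and 93.7 CPM in OCT4 and 379, 269.7 and 314 CPM in J1. The groups did not overlap, J1 varied most, and the log2 fold change was 1.28 (SE 0.0955, adjusted p = 3.13e-09) in the EWS-OCT4 line against the OCT4 line, -0.44 (SE 0.0930, adjusted p = 5.98e-04) in the EWS-OCT4 line against J1 and -1.72 (SE 0.0962, adjusted p = 5.97e-11) in the OCT4 line against J1.

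Slc7a5 and Slc3a2 encode the light and heavy chains of a leucine exchanger. Slc7a5 had 162, 171 and 164 CPM in EWS-OCT4, 107, 104 and 103 CPM in OCT4 and 208, 238 and 209.6 CPM in J1. Slc7a5 was lowest in the OCT4 line, with a log2 fold change of 0.67 (SE 0.0689, adjusted p = 1.71e-07) in the EWS-OCT4 line against the OCT4 line and -1.07 (SE 0.0691, adjusted p = 3.04e-10) in the OCT4 line against J1, and it was also below J1 in the EWS-OCT4 line, with -0.40 (SE 0.0681, adjusted p = 6.46e-05). Slc3a2 had 140.1, 143 and 143 CPM in EWS-OCT4, 87.8, 91.1 and 84.7 CPM in OCT4 and 135, 142 and 131 CPM in J1. It too was lowest in the OCT4 line, with a log2 fold change of 0.70 (SE 0.0634, adjusted p = 3.42e-08) in the EWS-OCT4 line against the OCT4 line and -0.63 (SE 0.0634, adjusted p = 9.11e-08) in the OCT4 line against J1, and the EWS-OCT4 line and J1 overlapped.

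Slc1a4 and Slc1a5 exchange neutral amino acids, among them serine and glutamine. Slc1a4 had 11.6, 12.9 and 12.5 CPM in EWS-OCT4, 20.7, 18.3 and 21.8 CPM in OCT4 and 20.8, 19.3 and 17.5 CPM in J1. Slc1a4 was lowest in the EWS-OCT4 line, with a log2 fold change of -0.72 (SE 0.0985, adjusted p = 5.29e-06) against the OCT4 line and -0.64 (SE 0.0985, adjusted p = 2.42e-05) against J1. Slc1a5 had 30.00, 29.2 and 31.5 CPM in EWS-OCT4, 29.0, 30.7 and 31.4 CPM in OCT4 and 20.6, 19.1 and 17.3 CPM in J1. Both stable lines were above J1, with a log2 fold change of 0.67 (SE 0.0833, adjusted p = 2.11e-06) in the EWS-OCT4 line and 0.68 (SE 0.0833, adjusted p = 1.24e-06) in the OCT4 line, and they overlapped each other. Slc7a11, the cystine importer and a textbook ATF4 target, had 0.192, 0.390 and 0.463 CPM in EWS-OCT4, 0.277, 0.407 and 0.504 CPM in OCT4 and 0.603, 0.439 and 0.141 CPM in J1. At this level a difference between groups was not detectable, and the SE of its log2 fold change was 0.513 in the EWS-OCT4 line against the OCT4 line.

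The 4 tRNA synthetases did not share a direction. In the EWS-OCT4 line against the OCT4 line 1 rose and 1 fell, and in the OCT4 line against J1 2 rose and 1 fell. The EWS-OCT4 line against J1 had 1 higher and 0 lower, and at an unadjusted p under 0.05 in edgeR 1 lower, Gars, against 0 with DESeq2 or limma-voom. Wars1, for tryptophan, rose over J1 in both stable lines. It had 70.5, 61.5 and 66.8 CPM in EWS-OCT4, 72.5, 72.2 and 67.6 CPM in OCT4 and 40.5, 38.8 and 37.6 CPM in J1. Wars1 had a log2 fold change of 0.77 (SE 0.0713, adjusted p = 6.48e-08) in the EWS-OCT4 line and 0.86 (SE 0.0712, adjusted p = 7.71e-09) in the OCT4 line against J1. Nars, for asparagine, had 234, 232 and 242 CPM in EWS-OCT4, 195, 181 and 194 CPM in OCT4 and 216, 236 and 240.0 CPM in J1. Nars had a log2 fold change of 0.31 (SE 0.0666, adjusted p = 5.07e-04) in the EWS-OCT4 line against the OCT4 line and -0.28 (SE 0.0666, adjusted p = 0.00124) in the OCT4 line against J1. Sars, for serine, went the other way, at 161, 172 and 161 CPM in EWS-OCT4, 195, 209 and 220.0 CPM in OCT4 and 119.9, 161 and 147 CPM in J1. Sars had a log2 fold change of -0.34 (SE 0.0896, adjusted p = 0.00319) in the EWS-OCT4 line against the OCT4 line and 0.54 (SE 0.0899, adjusted p = 4.21e-05) in the OCT4 line against J1. Nars was lowest and Sars highest in the OCT4 line, and J1 replicate 1 was the lowest of all libraries for Sars. Gars, for glycine, had 243, 231 and 228 CPM in EWS-OCT4, 260.4, 239 and 233 CPM in OCT4 and 261, 269 and 247 CPM in J1. Its smallest adjusted p was 0.0687, in the EWS-OCT4 line against J1.

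Stress genes and amino acid genes can be set side by side through these counts. Of the 14 stress genes 8 rose (57.1%) and 1 fell (7.14%) in the OCT4 line against J1. Of the other 24 genes 7 rose (29.2%) and 11 fell (45.8%), beside 34.3% and 32.7% of all genes tested. Against the OCT4 line, 2 of the stress genes rose (14.3%) and 7 fell (50%) in the EWS-OCT4 line. Of the other 24 genes 9 rose (37.5%) and 10 fell (41.7%), beside 31.9% and 34.6% of all genes. Against J1, 2 of the stress genes rose (14.3%) and 5 fell (35.7%) in the EWS-OCT4 line. Of the other 24 genes 4 rose (16.7%) and 12 fell (50%), beside 30.3% and 31.6% of all genes. The mean level was highest in the EWS-OCT4 line for 6 of the 38 genes, in the OCT4 line for 18 and in J1 for 14. These 18 included 8 of the 14 stress genes and all 5 asparagine, proline and cysteine enzymes, and the 14 included all 8 serine and one-carbon enzymes. Some of these ranks rest on near ties. In the OCT4 line Aldh18a1 averaged 47.9 against 47.7 CPM in J1, and Slc7a11 0.396 against 0.394 CPM. Slc1a5 averaged 30.4 CPM there against 30.2 CPM in the EWS-OCT4 line, and Mthfd2 was called in no comparison. Such a tally was not made over all genes. The difference in counts between roles was not tested.

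Several of the 38 genes lie on chromosomes whose genes had a negative median log2 fold change against J1 in each stable line. Over tested genes averaging 5 CPM or more, the median log2 fold change against J1 on chromosome 8 was -0.41 in the EWS-OCT4 line and -0.49 in the OCT4 line. On chromosome 11 it was -0.46 in the EWS-OCT4 line and -0.49 in the OCT4 line, and on chromosome 12 it was -0.29 and -0.24. Eif4ebp1 and Slc7a5 are on chromosome 8, Stc2, Shmt1, Pycr1 and Slc1a4 on chromosome 11, and Mthfd1 and Wars1 on chromosome 12. In the EWS-OCT4 line against J1, the log2 fold change minus the median of its chromosome was -0.0164 for Eif4ebp1, 0.0132 for Slc7a5, -0.70 for Stc2, -0.21 for Shmt1, -0.16 for Pycr1, -0.18 for Slc1a4, -0.10 for Mthfd1 and 1.05 for Wars1. In the OCT4 line against J1, the same difference was 0.45 for Eif4ebp1, -0.58 for Slc7a5, -1.82 for Stc2, -0.93 for Shmt1, 0.95 for Pycr1, 0.57 for Slc1a4, 0.12 for Mthfd1 and 1.10 for Wars1. Slc7a3 is on the X chromosome, whose median was -0.46 in the EWS-OCT4 line against the OCT4 line and 0.63 in the OCT4 line against J1. Its own fold changes ran opposite to these medians in both comparisons. Without the genes of chromosomes 8, 11, 12, X and Y in the fit, an alternative chosen after these medians were seen, 29 of the 38 genes remained. Of these, 4 rose and 12 fell in the EWS-OCT4 line against J1, beside 4 and 10 of the same 29 with all chromosomes, and 7 rose and 13 fell in the EWS-OCT4 line against the OCT4 line, as with all chromosomes. In the OCT4 line against J1 12 rose and 8 fell, beside 13 and 8. This fit also shifted the log2 fold changes of all genes kept. The median shift was -0.0655 in the EWS-OCT4 line against J1, -0.0610 in the OCT4 line against J1 and -0.00450 between the stable lines. Fold changes were set against chromosome medians for the 38 genes only. The counts and fold changes against J1 of the gene lists below may include such chromosome shifts, which was not tested.

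**Figure D4:**
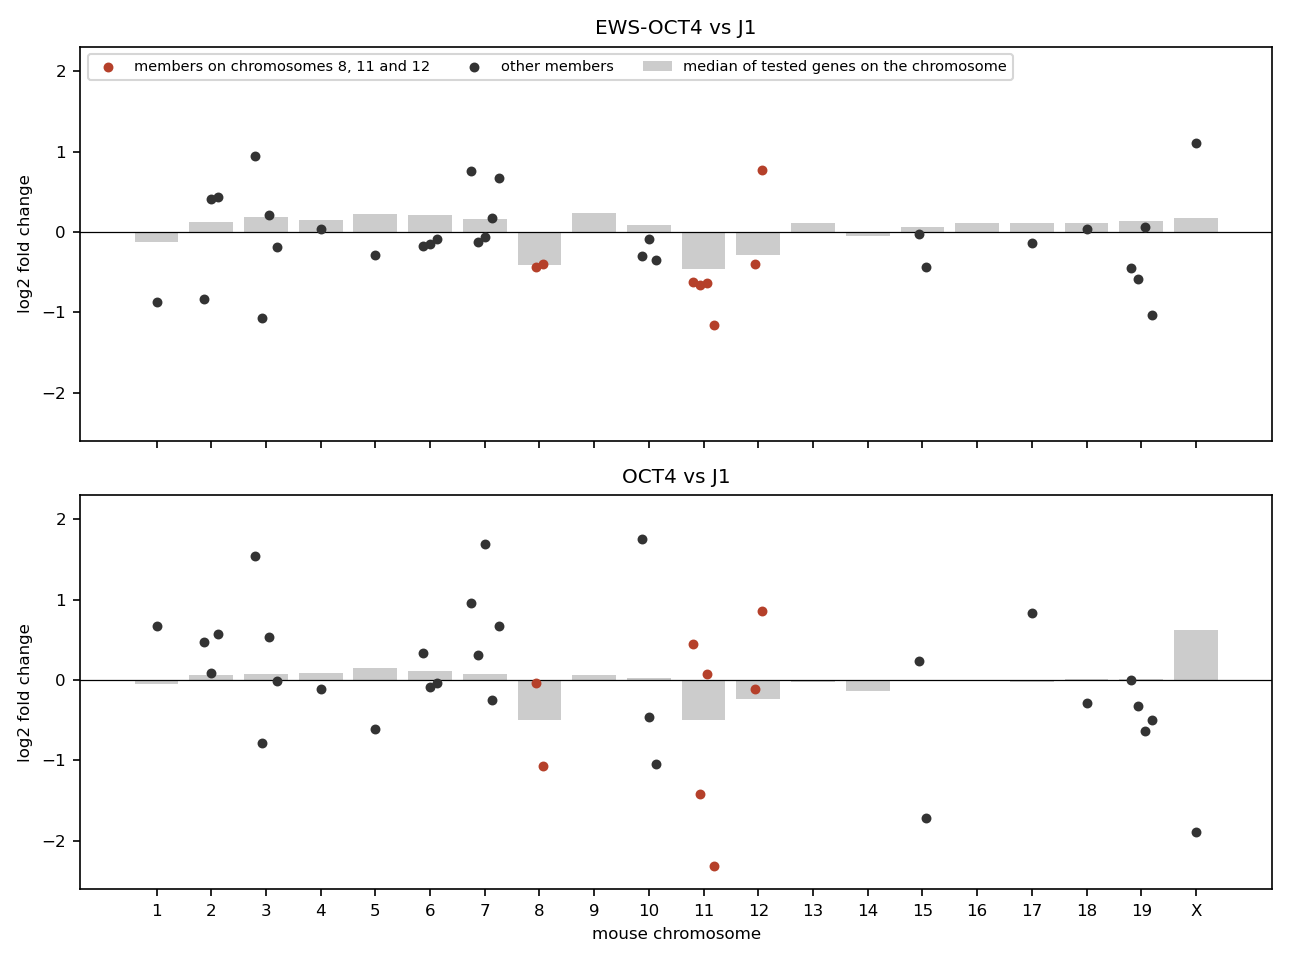
Log2 fold change of the 38 genes (points) by mouse chromosome, in the EWS-OCT4 line against J1 (upper panel) and the OCT4 line against J1 (lower panel); grey bars are the median of the tested genes on each chromosome that average 5 CPM or more. The bars of chromosomes 8, 11 and 12 (red points) lie below 0 in both panels. In the upper panel the points of chromosome 11 lie below their median, those of chromosome 8 close to it and those of chromosome 12 on both sides. In the lower panel the points of chromosomes 8 and 11 lie on both sides of their median and those of chromosome 12 above it.

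The upstream machinery was read from 14 further genes for eIF2, its kinases and its exchange factor eIF2B. Of these 8 rose (57.1%) and 4 fell (28.6%) in the EWS-OCT4 line against the OCT4 line, beside 31.9% and 34.6% of all genes. Against J1, 5 rose (35.7%) and 5 fell (35.7%) in the EWS-OCT4 line, near the 30.3% and 31.6% of all genes. In the OCT4 line against J1 3 rose (21.4%) and 6 fell (42.9%), beside 34.3% and 32.7%. Eif2s2, the beta subunit of eIF2, had 977, 1032 and 1083 CPM in EWS-OCT4, 2148, 1803 and 2119 CPM in OCT4 and 1255, 1420.5 and 1418 CPM in J1. Eif2s2 had a log2 fold change of -0.97 (SE 0.0829, adjusted p = 1.42e-08) in the EWS-OCT4 line against the OCT4 line. Eif2s1, the alpha subunit that the kinases phosphorylate, had 237, 229.9 and 239 CPM in EWS-OCT4, 198, 177 and 194 CPM in OCT4 and 340.2, 344 and 359 CPM in J1. Eif2s1 had a log2 fold change of -0.87 (SE 0.0656, adjusted p = 2.12e-09) in the OCT4 line against J1. The subunits thus had different orders: Eif2s2 was highest and Eif2s1 lowest in the OCT4 line. Among the kinases, the haem-regulated Eif2ak1 rose in the EWS-OCT4 line, with a log2 fold change of 0.51 (SE 0.0716, adjusted p = 6.04e-06) against the OCT4 line. The amino acid sensor Eif2ak4 (GCN2) fell there, with a log2 fold change of -0.34 (SE 0.0772, adjusted p = 8.89e-04) against the OCT4 line, and its activator Gcn1 rose in the OCT4 line over J1, with 0.38 (SE 0.0718, adjusted p = 1.40e-04). The RNA-activated Eif2ak2 (PKR) fell against J1, with a log2 fold change of -0.49 (SE 0.0891, adjusted p = 1.27e-04) in the EWS-OCT4 line and -0.86 (SE 0.0905, adjusted p = 1.80e-07) in the OCT4 line. Eif2b1, of eIF2B, rose in the EWS-OCT4 line, with a log2 fold change of 0.81 (SE 0.0893, adjusted p = 3.59e-07) against the OCT4 line.

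Of 13 other genes known as ATF4 targets, 12 were tested and Fgf21 was too low. Of these 5 rose (41.7%) and 5 fell (41.7%) in the EWS-OCT4 line against the OCT4 line, beside 31.9% and 34.6% of all genes. Against J1, 3 rose (25%) and 4 fell (33.3%) in the EWS-OCT4 line, beside 30.3% and 31.6%. In the OCT4 line against J1 4 rose (33.3%) and 3 fell (25%), beside 34.3% and 32.7%. Ddit4, an mTORC1 inhibitor, had 19.5, 17.7 and 18.7 CPM in EWS-OCT4, 62.4, 74.1 and 77.6 CPM in OCT4 and 31.9, 45.0 and 39.9 CPM in J1. Ddit4 had a log2 fold change of -1.94 (SE 0.114, adjusted p = 3.41e-10) in the EWS-OCT4 line against the OCT4 line and 0.88 (SE 0.108, adjusted p = 2.11e-06) in the OCT4 line against J1. Cdkn1a, the cell cycle inhibitor p21 that p53 also induces, had 24.3, 23.3 and 27.7 CPM in EWS-OCT4, 102, 110.1 and 119 CPM in OCT4 and 39.3, 44.0 and 38.3 CPM in J1. Cdkn1a had a log2 fold change of -2.14 (SE 0.0860, adjusted p = 8.84e-13) in the EWS-OCT4 line against the OCT4 line. Both were highest in the OCT4 line and lowest in the EWS-OCT4 line. The neutral amino acid carriers Slc38a1 and Slc43a1 rose in the EWS-OCT4 line against the OCT4 line, with a log2 fold change of 1.29 (SE 0.0665, adjusted p = 1.93e-11) and with 1.18 (SE 0.146, adjusted p = 1.50e-06). The tRNA exporter Xpot fell in the OCT4 line against J1, with a log2 fold change of -1.10 (SE 0.0772, adjusted p = 8.94e-10), and the autophagy receptor Sqstm1 fell against J1 in the EWS-OCT4 line, with -1.01 (SE 0.0680, adjusted p = 1.01e-09), and in the OCT4 line, with -0.57 (SE 0.0672, adjusted p = 7.62e-07).

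The ER chaperone branch of the unfolded protein response, which ATF6 and XBP1 drive, was read from 16 genes. Of these 10 rose (62.5%) and 1 fell (6.25%) in the EWS-OCT4 line against the OCT4 line, beside 31.9% and 34.6% of all genes. Against J1, 7 rose (43.8%) and 2 fell (12.5%) in the EWS-OCT4 line, beside 30.3% and 31.6%. In the OCT4 line against J1 3 rose (18.8%) and 8 fell (50%), beside 34.3% and 32.7%. Hspa5, the chaperone BiP, had 659, 644 and 673 CPM in EWS-OCT4, 418, 386 and 410.3 CPM in OCT4 and 521, 556 and 544 CPM in J1. Hspa5 had a log2 fold change of 0.70 (SE 0.0650, adjusted p = 4.16e-08) in the EWS-OCT4 line against the OCT4 line and -0.42 (SE 0.0648, adjusted p = 1.98e-05) in the OCT4 line against J1. BiP mRNA was thus lowest in the line where Ddit3 was highest. Pdia4, a disulfide isomerase, had 343, 348 and 367 CPM in EWS-OCT4, 184, 174 and 189.7 CPM in OCT4 and 226, 267 and 260.3 CPM in J1. Pdia4 had a log2 fold change of 0.95 (SE 0.0733, adjusted p = 3.94e-09) in the EWS-OCT4 line against the OCT4 line. The gene that fell in that comparison was Ern1, the sensor IRE1, with a log2 fold change of -0.49 (SE 0.104, adjusted p = 4.98e-04). Dnajc3, a BiP co-chaperone, rose over J1, with a log2 fold change of 1.34 (SE 0.0769, adjusted p = 1.43e-10) in the EWS-OCT4 line and 1.12 (SE 0.0769, adjusted p = 6.29e-10) in the OCT4 line, as did Edem1, of ER-associated degradation, with 0.66 (SE 0.0803, adjusted p = 1.55e-06) and 0.65 (SE 0.0803, adjusted p = 1.30e-06). Pdia6 fell against J1, with a log2 fold change of -0.57 (SE 0.0833, adjusted p = 1.25e-05) in the EWS-OCT4 line and -0.70 (SE 0.0835, adjusted p = 7.91e-07) in the OCT4 line, and Dnajb9 fell in the OCT4 line against J1, with -0.58 (SE 0.129, adjusted p = 8.95e-04).

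Another 16 cytoplasmic tRNA synthetases were mostly lower in the OCT4 line than in J1, with 1 higher (6.25%) and 12 lower (75%). All genes gave 34.3% and 32.7% there. The EWS-OCT4 line had 8 higher (50%) and 0 lower than the OCT4 line, beside 31.9% and 34.6%. This 0 was the same at an unadjusted p under 0.05 in edgeR and with DESeq2 or limma-voom. Against J1 the EWS-OCT4 line had 2 higher (12.5%) and 7 lower (43.8%), beside 30.3% and 31.6%. Hars had 108, 122 and 115 CPM in EWS-OCT4, 67.4, 73.8 and 76.8 CPM in OCT4 and 72.3, 87.7 and 82.3 CPM in J1. Hars had a log2 fold change of 0.67 (SE 0.0794, adjusted p = 9.50e-07) in the EWS-OCT4 line against the OCT4 line. Rars had 193, 190.1 and 191 CPM in EWS-OCT4, 129, 119 and 127 CPM in OCT4 and 228, 236 and 237 CPM in J1. Rars had a log2 fold change of 0.61 (SE 0.0627, adjusted p = 1.46e-07) in the EWS-OCT4 line against the OCT4 line and -0.90 (SE 0.0628, adjusted p = 8.22e-10) in the OCT4 line against J1. The arginine enzyme was thus lowest in the OCT4 line and highest in J1, and the histidine enzyme highest in the EWS-OCT4 line. Kars fell against J1 in both stable lines, with a log2 fold change of -0.84 (SE 0.0667, adjusted p = 8.26e-09) in the EWS-OCT4 line and -0.87 (SE 0.0667, adjusted p = 2.73e-09) in the OCT4 line, and Farsa did so, with -0.48 (SE 0.0839, adjusted p = 9.33e-05) and -0.66 (SE 0.0844, adjusted p = 1.83e-06). Qars, the one gene called higher in the OCT4 line than in J1, gave a log2 fold change of 0.18 (SE 0.0612, adjusted p = 0.0165). None of these synthetase fold changes was set against the median of its chromosome.

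Of 16 enzymes of glycine, threonine, folate and methionine metabolism, 10 rose (62.5%) and 4 fell (25%) in the EWS-OCT4 line against the OCT4 line. All genes gave 31.9% and 34.6% there. Against J1, 5 rose (31.2%) and 7 fell (43.8%) in the EWS-OCT4 line, beside 30.3% and 31.6%. In the OCT4 line against J1 6 rose (37.5%) and 6 fell (37.5%), near the 34.3% and 32.7% of all genes. Tdh, threonine dehydrogenase, on which mouse ES cells are known to depend, had 85.0, 86.6 and 90.1 CPM in EWS-OCT4, 36.0, 42.7 and 40.3 CPM in OCT4 and 296, 257 and 247 CPM in J1. Tdh was lowest in the OCT4 line, with a log2 fold change of 1.14 (SE 0.0823, adjusted p = 1.72e-09) in the EWS-OCT4 line against the OCT4 line, -1.61 (SE 0.0799, adjusted p = 2.18e-11) in the EWS-OCT4 line against J1 and -2.75 (SE 0.0843, adjusted p = 1.86e-14) in the OCT4 line against J1. Gldc, of the mitochondrial glycine cleavage system, had 105, 100.4 and 97.6 CPM in EWS-OCT4, 71.3, 80.5 and 74.4 CPM in OCT4 and 266, 254 and 242 CPM in J1. These followed the same order as Tdh, with a log2 fold change of -1.75 (SE 0.0700, adjusted p = 5.46e-13) in the OCT4 line against J1. Amt, of the same system, rose over J1, with a log2 fold change of 0.76 (SE 0.0715, adjusted p = 7.45e-08) in the EWS-OCT4 line and 0.59 (SE 0.0717, adjusted p = 1.18e-06) in the OCT4 line.

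Bhmt, which remethylates homocysteine with betaine and is mostly a liver and kidney enzyme, had 0.288, 0.519 and 0.505 CPM in EWS-OCT4, 34.7, 37.5 and 37.2 CPM in OCT4 and 1.53, 1.08 and 0.658 CPM in J1. It was near 0 outside the OCT4 line, with a log2 fold change of -6.35 (SE 0.191, adjusted p = 2.36e-14) in the EWS-OCT4 line against the OCT4 line and 5.04 (SE 0.163, adjusted p = 3.62e-14) in the OCT4 line against J1. Aldh1l1, the cytosolic formyl-tetrahydrofolate dehydrogenase, had 3.80, 4.72 and 4.97 CPM in EWS-OCT4, 17.2, 19.7 and 20.4 CPM in OCT4 and 6.43, 7.98 and 7.24 CPM in J1. Aldh1l1 had a log2 fold change of 1.40 (SE 0.119, adjusted p = 1.07e-08) in the OCT4 line against J1. Its mitochondrial relative Aldh1l2 had 7.79, 7.10 and 8.26 CPM in EWS-OCT4, 2.95, 2.35 and 2.52 CPM in OCT4 and 2.65, 2.83 and 3.71 CPM in J1. Aldh1l2 had a log2 fold change of 1.56 (SE 0.165, adjusted p = 2.11e-07) in the EWS-OCT4 line against the OCT4 line. The cytosolic enzyme was thus highest in the OCT4 line and the mitochondrial one in the EWS-OCT4 line.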

How the data were processed

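Total RNA was sequenced from 3 libraries each of EWS-OCT4, OCT4 and J1 cells, prepared with the CORALL RNA-seq V2 kit per the labels. Each table the authors deposited holds whole-number counts for 1 library, with a symbol per row. Per the submitters' processing notes, fastp, STAR, Salmon and GATK were used with GRCm39; the sources used here give neither their versions nor the step that made the counts, nor say whether molecular identifiers or strand were used. Counts were tested with edgeR 4.0.16 in R 4.3.3: filterByExpr kept 16562 of 40213 symbols, 12189 of which had no counts, TMM factors were 0.958 to 1.03, and robust glmQLFit and glmQLFTest were run on all 9 libraries in 3 groups, with Benjamini-Hochberg adjustment over all tested genes and calls at adjusted p under 0.05. Libraries of the same group were not duplicates of each other (chi-square per degree of freedom 3.36 to 32.4). Log2 fold changes with their SE come from this fit. The fit was tested on simulated data for the EWS-OCT4 against OCT4 comparison.

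Levels in CPM are not divided by gene length and are compared between groups only. The members and the comparison lists were chosen with earlier results of these data known. Values in every library were planned for 11 anchor genes (Atf4, Ddit3, Trib3, Chac1, Asns, Phgdh, Psat1, Mthfd2, Slc7a11, Slc7a3 and Nars) and for the 6 members per direction and comparison with the largest fold changes among called members with no overlap between groups and at least 5 CPM in the higher group. They are also given for 12 members outside that rule, added after their values were seen: Atf3, Cebpg, Eif4ebp1, Gars, Mthfd1, Mthfd1l, Ppp1r15a, Psph, Sars, Sesn2, Stc2 and Vldlr. From each comparison list up to 2 genes per direction and comparison are named by the same criteria. Promoter windows and gene positions come from RefSeq, on GRCm38.p6 for the windows, and shared 31-base words and exon overlaps from GENCODE M21. A chromosome was found for 16105 of the tested genes. Alternatives were RLE and upper-quartile scaling, no filter and a filter at 5 CPM in 3 libraries, DESeq2 1.42.0, limma-voom 3.58.1, only the 6 libraries compared, a replicate block, no mitochondrially encoded genes and Gm26917, and each library left out; a fit without chromosomes 8, 11, 12, X and Y was added after seeing the data.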

Additional observations from a re-analysis of the deposited data

How the results depend on the processing

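The counts of the 38 genes called higher or lower stayed within 1.5 times in all 18 alternatives. Between the stable lines they ran from 10 to 12 higher and from 16 to 17 lower. Against J1 they ran from 6 to 7 and from 15 to 19 for EWS-OCT4, and from 14 to 15 and from 11 to 14 for OCT4. Of the 78 calls, 72 were made in each alternative that tested the gene and 0 changed sign (Atf3, Stc2 and Vldlr were not tested under the minimum of 5 CPM, nor Chac1 and Slc7a11, which had no call), and 6 were lost in some, each given with its gene in the report (Asns, Atf3 and Cebpb against J1, Ppp1r15a and Psat1 between the stable lines). Of the 36 results without a call, 9 passed in some alternative. Against J1 in the EWS-OCT4 line, Sars passed in 6 alternatives, with its smallest adjusted p without J1 replicate 2 (0.00344). Ddit3 passed in 3, with its smallest without J1 replicate 1 (0.00154), and Gars in 3, with its smallest under upper-quartile scaling (0.0190). Cebpg passed only without J1 replicate 1 (0.0158) and Chac1 only without J1 replicate 3 (0.0144). Against J1 in the OCT4 line, Ppp1r15a passed in 4 alternatives. These were no count filter (0.00704), the replicate block (0.0352), and leaving out OCT4 replicate 3 (0.0175) or J1 replicate 1 (0.0115). Vldlr passed without OCT4 replicate 1 (0.0244) and with the replicate block (0.0494). Mthfd1 passed under DESeq2 (0.0239) and without J1 replicate 1 (0.0436). Sesn2 passed between the stable lines with only the 6 libraries compared (0.0388). Whether equal replicate numbers pair the libraries cannot be told from these values. Deviations from the group means correlated at -3.17e-05 to 0.0737 between same-numbered libraries and -0.0644 to 0.0334 between others, ranges that overlap. A replicate block gave 11 higher and 17 lower between the stable lines, and against J1 it gave 7 and 19 for EWS-OCT4 and 15 and 14 for OCT4. The values that changed sign were all uncalled, the largest being 0.403 for Slc7a11 in the OCT4 line against J1 without J1 replicate 1, and the cause was not tested. Some alternatives shifted the log2 fold changes of all genes. In the EWS-OCT4 line against J1 the median shift was -0.0477 under upper-quartile scaling and -0.0442 with a minimum of 5 CPM in 3 libraries. It was -0.0655 without genes of chromosomes 8, 11, 12, X and Y. Slc1a5 in the EWS-OCT4 line against the OCT4 line was 0.0113 under RLE scaling, 0.0189 without a count filter, 0.0113 under DESeq2, 0.00872 with only the 6 libraries compared and 0.00951 without mitochondrially encoded genes and Gm26917. Aldh18a1 in the OCT4 line against J1 was -0.00989 under RLE scaling, -0.0106 without a count filter, -0.0101 under DESeq2, -0.00333 with only the 6 libraries compared, -0.00654 without mitochondrially encoded genes and Gm26917, -0.00645 under upper-quartile scaling and -0.0579 without genes of chromosomes 8, 11, 12, X and Y. Sesn2 in the EWS-OCT4 line against J1 was -0.00956 under upper-quartile scaling, -0.00640 with a minimum of 5 CPM in 3 libraries and -0.0277 without genes of chromosomes 8, 11, 12, X and Y. Nars in the EWS-OCT4 line against J1 was -0.0158 under upper-quartile scaling, -0.0119 with a minimum of 5 CPM in 3 libraries and -0.0331 without genes of chromosomes 8, 11, 12, X and Y. Slc3a2 in the EWS-OCT4 line against J1 was -0.00448 without genes of chromosomes 8, 11, 12, X and Y. Slc7a11 in the OCT4 line against J1 was 0.141 under limma-voom. Leaving out each library in turn gave in the EWS-OCT4 line against the OCT4 line -0.419 to 0.122 for Slc7a11 and -0.0400 to 0.0392 for Slc1a5. Leaving out each library in turn gave in the EWS-OCT4 line against J1 -0.0750 to 0.0320 for Atf4, -0.217 to 0.0243 for Nupr1, -0.0173 to 0.108 for Sesn2, -0.552 to 0.235 for Slc7a11 and -0.0161 to 0.0644 for Nars. Leaving out each library in turn gave in the OCT4 line against J1 -0.0721 to 0.321 for Chac1, -0.121 to 0.0753 for Eif4ebp1, -0.0524 to 0.0416 for Aldh18a1, -0.402 to 0.403 for Slc7a11 and -0.00197 to 0.149 for Slc1a4. Depth limits the low genes most, above all Slc7a11, at under 0.7 CPM in every library. With 3 libraries per group of unstated origin, the p-values cannot be taken to cover differences between clones or cultures.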
